A study of Caenorhabditis elegans with 4 samples.

Results

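Peaks of COH-3 along chromosome V of adult Caenorhabditis elegans were taken as all rows of the series-wide peak list that lie on that chromosome, 1162 of 7498 peaks or 15.5%. COH-3 is a kleisin, the subunit that closes the ring of a meiotic form of cohesin, and was mapped by chromatin immunoprecipitation and sequencing (ChIP-seq) with an affinity-purified polyclonal rabbit antibody. The study held 2 ChIP libraries and 2 libraries of input DNA, 4 in all. All were made from fem-2(b245)III hermaphrodites at 20 °C, labelled as young adults with a germ line, while the growth protocol describes synchronized batches harvested once gravid. The allele was therefore shared by the ChIP and the input libraries, and no wild-type library was analysed here. Many whole animals were pooled in each batch, so a peak cannot be assigned to germ line or soma. Nothing in the labels says whether the replicates came from separate cultures, so the spread between them may be technical.

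Cohesin holds sister chromatids together from DNA replication until they separate. In meiosis of this worm, mitotic kleisin is largely replaced by REC-8 and by the closely related pair COH-3 and COH-4, which take part in building the axis along each chromosome. The genes coh-3 and coh-4 both lie on chromosome V itself in the RefSeq table for WBcel235. Chromosome V is the longest worm chromosome. Its arms are richer in repeats and in recombination than its gene-dense middle, and carry large families of chemoreceptor genes, while the array of 5S ribosomal RNA and SL1 spliced-leader genes also lies on it. Holocentric worm chromosomes have no single centromere that would concentrate cohesin at one place.

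Values were available as peak positions with the authors' score, on WormBase WS220. The ChIP libraries had a list each, and the series-wide list names another version of the caller, with no statement of how it combines the libraries. Input libraries have no list here and the read depth is unknown, so no value is a coverage or an enrichment over input. Genes under the peaks were not analysed here, because the gene table used is on a different build.

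Peaks on V numbered 320 in replicate 1 and 529 in replicate 2, a mean of 424.5 ± 148 (SD, n = 2). On the 20.9 Mb from base 1 to the last peak end, this made a density of 15.3 and 25.3 per Mb, and of 55.5 per Mb for the series-wide list. The other autosomes I to IV carried 19.4, 41.2 and 91.6 per Mb in the same lists. By number V was thus more sparsely marked than the other autosomes in each list. By covered length the values were closer in replicate 1, where peaks covered 1.07% of V and 1.10% of the other autosomes. The covered shares were 2.34% and 3.39% in replicate 2, and 2.85% and 4.33% in the series-wide list. The median width was 409 bp on V and 367 bp on the other autosomes in replicate 1, 534 and 530 bp in replicate 2, and 284.5 and 289 bp in the series-wide list.

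Replicate 1 and replicate 2 placed their V peaks differently along the chromosome. Replicate 1 was densest in the middle, and replicate 2 on the arms. With the chromosome cut into 3 parts of equal length (33.3% each), replicate 1 had 144 peaks in the centre, 89 on the right arm and 87 on the left arm. Replicate 2 had 149, 207 and 173. The centre thus held similar numbers in both lists, at 20.6 and 21.4 peaks per Mb. The arms did not, with 12.6 per Mb for replicate 1 against 27.2 for replicate 2.

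With the centre set at 33.3% of the length, its density relative to the arms passed the test in each library, with opposite signs. The log2 ratio was 0.71 in replicate 1 (95% exact interval 0.38 to 1.04; two-sided exact binomial test, adjusted p = 7.11e-05). In replicate 2 it was -0.35 (-0.63 to -0.07; exact binomial test, adjusted p = 0.0224). The mean was 0.18 ± 0.75 (SD, n = 2). Because the signs were opposite, no difference between centre and arms was called for V. Replicate 1 thus kept 45.0% of its V peaks in the centre and replicate 2 kept 28.2%, shares that differed by 16.8 percentage points (two-sided Fisher's exact test, p = 8.1e-07). The sign in replicate 2 depended on where the centre was cut. With the central 50% of the length it was positive in both libraries, at 0.91 in replicate 1 (exact binomial test, adjusted p = 1.86e-07) and 0.27 in replicate 2 (adjusted exact binomial p = 0.0736). The difference in replicate 2 also did not last when peaks closer than 500 bp were merged, at -0.21 (exact binomial test, adjusted p = 0.269). All of these tests count peaks as independent, which neighbouring peaks are not, and the intervals cover counting error only.

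**Figure D1:**
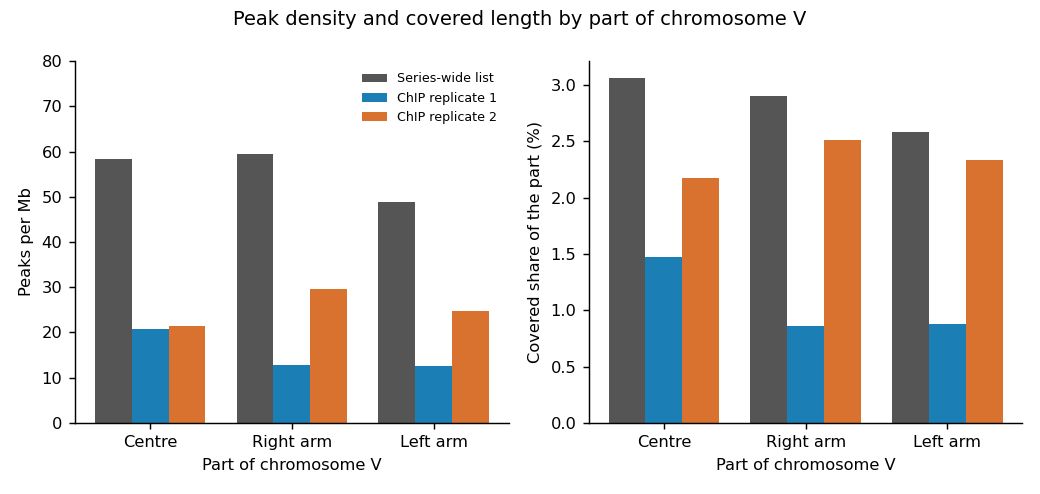
Peaks per Mb (left panel) and covered share of the sequence in % (right panel) for the centre, the right arm and the left arm of chromosome V, each 33.3% of its length; bars stand for the series-wide list and the replicates. Replicate 1 stands highest in the centre, at 20.6 peaks per Mb, and replicate 2 on the right arm, at 29.7.

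With all peaks counted, the share in the centre also differed between V and the other autosomes in each library, again in opposite directions. In replicate 1 the centre held 45.0% of V peaks (95% exact interval 39.5 to 50.6) and 36.0% of those on I to IV (33.3 to 38.8). The log2 odds ratio was 0.54 (two-sided Fisher's exact test, adjusted p = 0.00704). In replicate 2 the shares were 28.2% on V (24.4 to 32.2) and 34.1% on I to IV (32.3 to 36.0), a log2 odds ratio of -0.40 (Fisher's exact test, adjusted p = 0.00825). Neither difference passed among the better-scoring 50% of each list (adjusted Fisher's exact p = 0.319 in both) or after merging of close peaks (0.213 in both). With the central 50% of the length as centre, the log2 odds ratios were both positive, at 0.54 in replicate 1 and 0.19 in replicate 2 (adjusted Fisher's exact p = 0.00813 and 0.166). No difference of V from the other autosomes was called under either cut. Peaks were counted as independent and the other autosomes were counted together, so the spread among them was not examined.

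With all peaks counted, no difference between the arms of V passed the test in either replicate. Replicate 1 had 12.8 peaks per Mb on the right arm and 12.5 on the left, which is 0.03 on the log2 scale (exact interval -0.41 to 0.48; adjusted p = 0.94, exact binomial test). Replicate 2 had 29.7 on the right arm and 24.8 on the left, or 0.26 (-0.04 to 0.56; adjusted p = 0.12, exact binomial test). In the series-wide list the ratio was 0.28 (0.07 to 0.49), with 414 peaks on the right arm and 341 on the left.

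Counted in bins of 1 Mb, the 20 full bins of V held 27 to 89 series-wide peaks, with a median of 55. The 60 full bins of the other autosomes held 38 to 217, with a median of 88.5. The fullest stretch of V lay from 6 to 7 Mb, and 30 of the 60 other bins held as many series-wide peaks or more. The highest count on V was reached or passed by 13 of the 60 other bins in replicate 1 and by 11 in replicate 2. The stretch from 6 to 7 Mb was also the fullest in each replicate, with 26 peaks in replicate 1, where the bins from 9 to 10 Mb and 10 to 11 Mb held as many, and 50 in replicate 2. The sparsest bins were the one from 3 to 4 Mb, with 27 series-wide peaks, and the first of the chromosome, with 28.

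The ratio between the libraries was widest at the right end. From 18 to 19 Mb replicate 1 had 11 peaks and replicate 2 had 35, and in the last bin, from 20 Mb to the end, they had 3 and 19. Replicate 1 had as many peaks as replicate 2 or more only between 9 and 14 Mb, and there in 4 of 5 bins. Its excess was greatest from 12 to 13 Mb, with 16 peaks in replicate 1 and 10 in replicate 2. Over the 20 full bins the counts of the replicates were weakly related (Spearman's rho 0.375, Pearson's r 0.38; a description, since neighbouring bins are not independent).

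**Figure D2:**
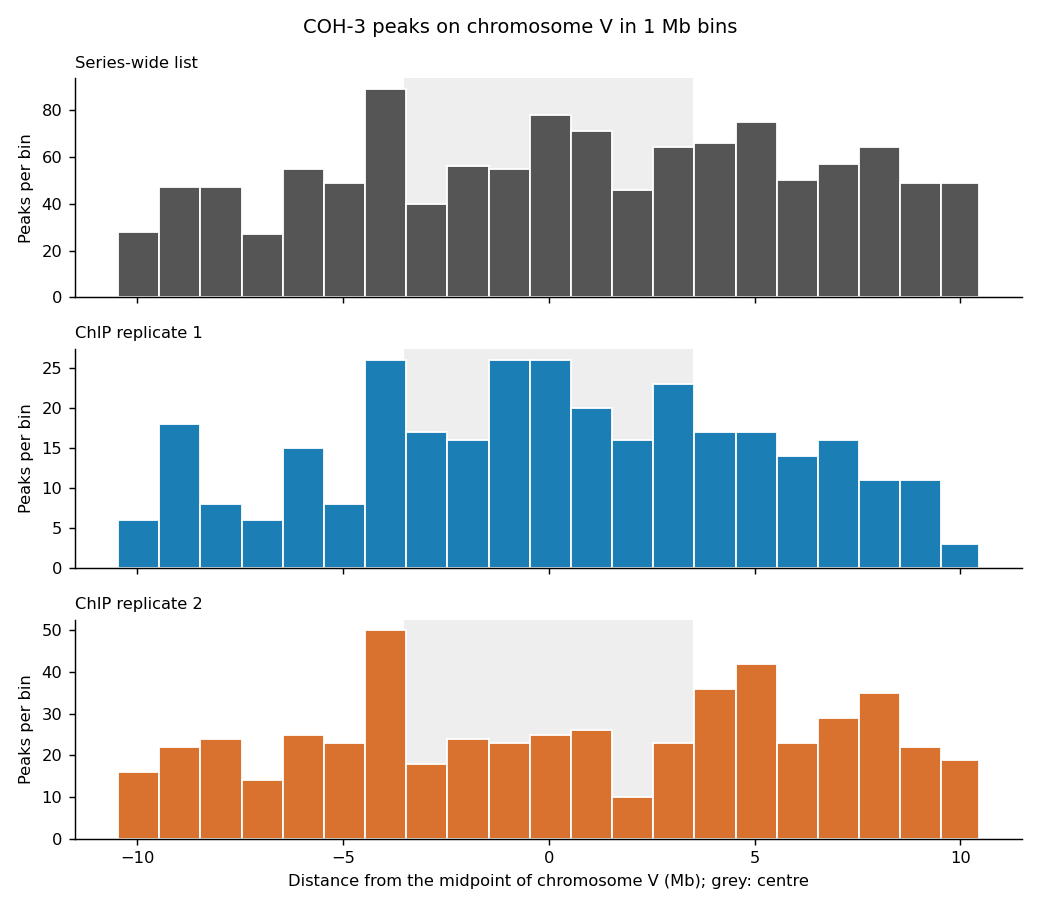
Number of peaks in each 1 Mb bin of chromosome V (the last bin is shorter), by distance from the midpoint of the chromosome in Mb, for the series-wide list, replicate 1 and replicate 2; the vertical scales differ, and grey marks the centre. The bin from 6 to 7 Mb is the tallest or joint tallest in each panel, at 89, 26 and 50 peaks.

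In the series-wide list and in replicate 2, the crowding between 6 and 7 Mb rested largely on one run of peaks on the left arm. From 6070144 to 6094504, 24 series-wide peaks followed each other at less than 1 kb, and together covered 18.4 kb of the 24.4 kb span. This run was singled out after its values were seen. Within it, 3 peaks had scores of 89.13 to 114.70 and the other 21 had scores of 3.05 to 16.44. Replicate 1 had only 4 peaks in the span, all within the 3 high-scoring ones, with scores of 599.22 to 730.94. Replicate 2 had 22 peaks there, with scores of 57.39 to 3100, and filled most of the span. Of the 24 series-wide peaks, 3 overlapped both replicates, 20 overlapped replicate 2 alone and 1 overlapped neither.

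Without the run, the bin from 6 to 7 Mb held 65 series-wide peaks, 22 of replicate 1 and 28 of replicate 2, and was no longer the fullest in any of the lists. When peaks closer than 500 bp were merged instead, it was still the fullest in replicate 1, with 21 peaks against 20 in the next, but not in the other lists. With this run left out, the centre ratio of replicate 2 was -0.26 (exact binomial test, adjusted p = 0.0795), while that of replicate 1 was 0.74 (adjusted p = 2.75e-05). The log2 ratio of the right arm over the left was then 0.46 in replicate 2 (exact binomial test, adjusted p = 0.00718). In replicate 1 it was 0.10 (exact binomial test, adjusted p = 0.703), so no difference between the arms was called. Leaving out a run on the left arm lowers the count of that arm, and of the arms together, by construction.

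Other runs of close peaks on V were shorter, and both of the next ones lay on the right arm. From 17384101 to 17394544, 13 series-wide peaks spanned 10.4 kb, with 4 peaks of replicate 1 and 7 of replicate 2. From 18047520 to 18059261, 10 series-wide peaks spanned 11.7 kb, with 10 peaks of replicate 2 and none of replicate 1. In the series-wide list, runs of 5 peaks or more numbered 11 on V and 109 on the other autosomes, or 0.526 and 1.77 per Mb, and the longest had 24 and 25 peaks. Replicate 1 had 0.143 such runs per Mb on V and 0.178 on the other autosomes, with at most 5 and 7 peaks. Replicate 2 had 0.191 and 0.292 per Mb, with at most 23 and 11 peaks.

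The widest sites included a group near 17.12 Mb on the right arm that both replicates outlined closely. In the series-wide list it comprised 4 peaks between 17115347 and 17132170, of 797, 1265, 6777 and 4109 bp, with nearly equal scores of 56.05 to 58.85. The list of replicate 1 had the same 4 blocks, of 802, 1252, 6790 and 4074 bp. In replicate 2 the last pair was joined into one peak of 13246 bp, the widest V peak of that list, from 17119466 to 17132711. The block of 6790 bp was likewise the widest V peak of replicate 1. In replicate 1 both of the larger blocks had the tied score of 3100. In replicate 2 the joined peak and the one of 1495 bp before it had this score. It was shared by 10 V peaks of replicate 1 and 22 of replicate 2.

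Gaps on V had a median of 5288 bp in the series-wide list, and 25 reached 100 kb or more. The group near 17.12 Mb lay further than this median from its neighbours. The nearest series-wide peak was 17.7 kb away on its left and 27.2 kb on its right, and these neighbours had scores of 3.05 and 4.86. It took up 5.76% of all V bases covered by peaks in replicate 1, 3.19% in replicate 2 and 2.17% in the series-wide list. Whether the group overlaps the 5S ribosomal RNA array was not analysed here, since no annotation of WS220 was used.

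**Figure D3:**
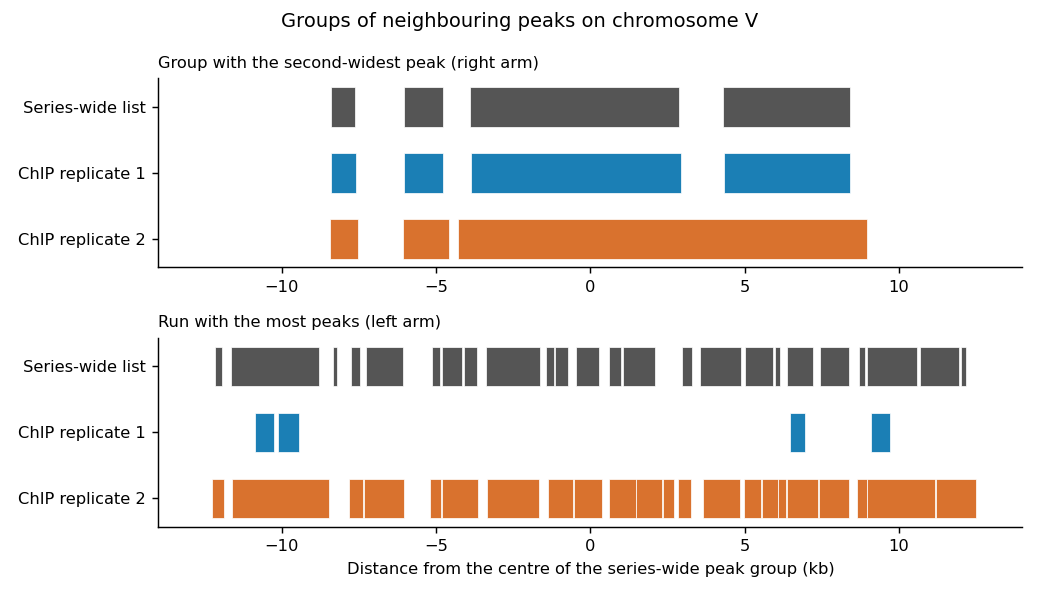
Extent of each peak (bars) in the series-wide list, replicate 1 and replicate 2, by distance in kb from the centre of the series-wide group, for the group holding the 6777 bp peak (top) and the run of 24 peaks (bottom). The lists draw the top group with nearly the same outer edges, replicate 2 joining the last pair of peaks, while in the bottom group replicate 1 has 4 peaks and replicate 2 has 22.

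The 10 widest series-wide peaks on V measured 4109 to 8245 bp, with 4 in the centre, 3 on the right arm and 3 on the left arm. The widest ran from 7916778 to 7925022 in the centre, with a score of 55.81. It was covered by 2 peaks of replicate 1, the larger of 6545 bp, and by 1 of replicate 2 of 9697 bp. The peak of 6718 bp from 9338309 to 9345026, also in the centre, had a score of 105.49 and the tied score of 3100 in both replicates. These sites were therefore wide in both libraries.

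Others differed more between the libraries. The peak from 3434568 to 3441191, of 6624 bp and with a score of 28.67, matched a single peak of 6768 bp in replicate 2. In replicate 1 it matched 2 smaller peaks, the larger of 2595 bp, that covered 55.9% of it, with a top score of 139.2. The peak from 18051886 to 18056394, of 4509 bp, was part of the run of 10 peaks on the right arm. It was the one member of the 10 widest without any peak in replicate 1, against 2 peaks and a top score of 3100 in replicate 2. The next by width, just outside the 10, measured 4049 bp.

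High-scoring peaks were mostly wide, but few were at the top by both measures. Of the 10 highest-scoring peaks, 8 were among the 60 widest, and the others ranked 149 and 394 by width. The cut of 60 is itself the width rank of one of the 8, so this count is a description. Among the 10 widest were 2 of them, the peak from 9338309 and the one from 723583 to 728240. The latter led V with a score of 181.77 at 4658 bp. The 10 highest-scoring peaks had scores of 94.33 to 181.77 and lay 4 in the centre, 2 on the right arm and 4 on the left arm. All 10 overlapped a peak in both replicates. The highest in the centre, from 13907121 to 13909769, scored 172.80, and the highest on the right arm, from 15320598 to 15323285, scored 122.75. The narrowest of the 10, from 18346036 to 18346416, spanned 381 bp. Across all V peaks, score and width were related in each list, with a Spearman's rho of 0.67 in the series-wide list, 0.78 in replicate 1 and 0.88 in replicate 2, given as a description because the caller sets both values.

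**Figure D4:**
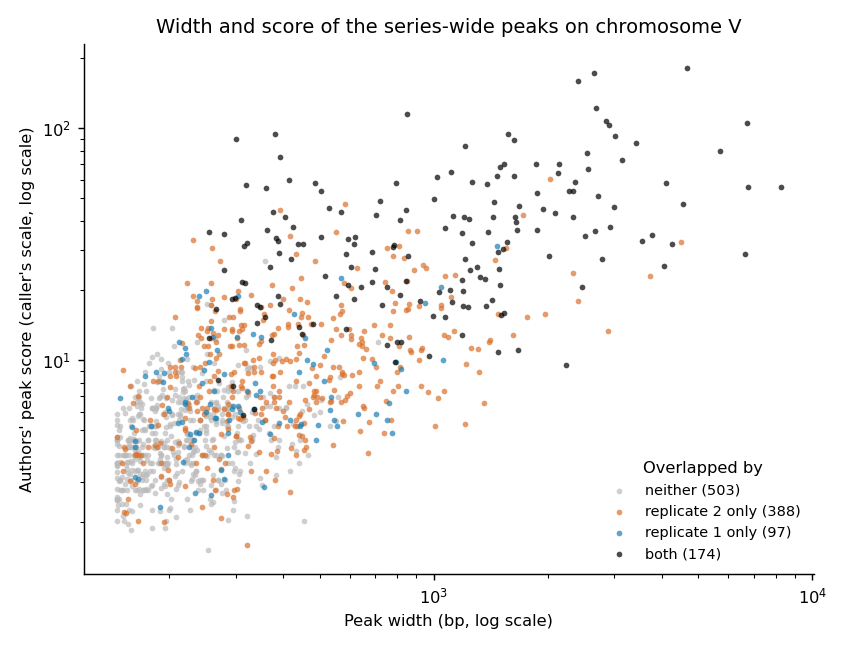
Width in bp and the authors' score of each of the 1162 series-wide peaks on chromosome V, both on log scales, coloured by the replicate lists that overlap them. The 174 peaks found in both replicates lie toward high width and score, and the 503 found in neither toward low values.

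Wide peaks made up a small share of V peaks and much of the marked length. At 1200 bp or more there were 100 of 1162 series-wide peaks on V, or 8.61% (95% exact interval 7.06 to 10.4), against 6.75% on the other autosomes and 7.07% over all nuclear peaks. They held 38.8% of the covered bases on V and 31.4% on the other autosomes. In replicate 1, 11.9% of V peaks and 8.71% of those on I to IV were this wide, where 9.22% of all its nuclear peaks were (log2 odds ratio 0.50; two-sided Fisher's exact test, adjusted p = 0.105). In replicate 2 the shares were 20.0% and 15.7%, and 16.8% over all (0.43; Fisher's exact test, adjusted p = 0.0337). The direction was the same in both libraries, but the difference passed in replicate 2 only, so it was not called. After merging of close peaks it passed in replicate 1 only, at 0.68 in replicate 1 and 0.17 in replicate 2 (adjusted Fisher's exact p = 0.0222 and 0.318). In the better-scoring 50% it passed in neither (adjusted Fisher's exact p = 0.294 and 0.0649). These tests, too, count peaks as independent.

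Support in the replicates was examined for all 1162 series-wide peaks on V. Both replicates overlapped 174 of them by at least 1 bp, or 15.0% (95% exact interval 12.97 to 17.16), against 13.1% on the other autosomes, and 13.9% over all nuclear peaks. Replicate 1 alone overlapped 97 peaks (8.35% on V, 4.43% on the other autosomes, 6.58% over all). Replicate 2 alone overlapped 388 (33.4% on V, 35.0% on the other autosomes, 33.4% over all). The remaining 503 overlapped neither (43.3% on V, 47.4% on the other autosomes, 46.1% over all). The share found in both on V was thus near the background of the whole list.

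Support followed score and width closely. In the 25% of V peaks with the highest scores, 12.89 and above, 159 of 291 (54.6%) were found in both replicates and 6 in neither. In the 25% with the lowest, up to 4.22, none of 291 was found in both, which allows a share of up to 1.03% (3 counts of 291; the exact interval reaches 1.26%), and 228 were found in neither. Of the 100 wide peaks, 78 were found in both replicates, 21 in replicate 2 alone, 1 in replicate 1 alone and none in neither, which allows up to 3% in neither (3 counts of 100; the exact interval reaches 3.62%). Of the 1062 narrower ones, 96 were found in both. Among wide peaks the share found in both was 78.0% on V (exact interval 68.6 to 85.7). It was close to that on the other autosomes, at 278 of 381 or 73.0% (68.2 to 77.4). There 26.2% of wide peaks were found in replicate 2 alone and 1 peak in neither. The groups by score were not compared with other autosomes, and over all V peaks 15.0% were found in both. The series-wide list may derive from the same reads, and a wide peak has more room to overlap another, so these shares are given without a test.

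The highest-scoring peak found in neither replicate was the very last one of the chromosome, from 20923822 to 20924180, scored at 26.86. After it came the one from 17714367 to 17714618, scored at 17.43. Both lie on the right arm, and they were named after their values were seen.

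Support also varied along V. In the centre 18.4% of the series-wide peaks were found in both replicates, 11.5% in replicate 1 alone and 21.1% in replicate 2 alone. On the right arm the shares were 12.1%, 5.31% and 40.6%, and on the left arm 14.4%, 8.21% and 39.3%. Over all nuclear peaks they were 13.9%, 6.58% and 33.4%. The share found in neither was highest in the centre, at 48.9%, against 42.0% on the right arm and 38.1% on the left arm. It was 46.1% over all nuclear peaks. Parts of the other autosomes were not compared. The arms thus drew much of their support from replicate 2 alone.

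**Figure D5:**
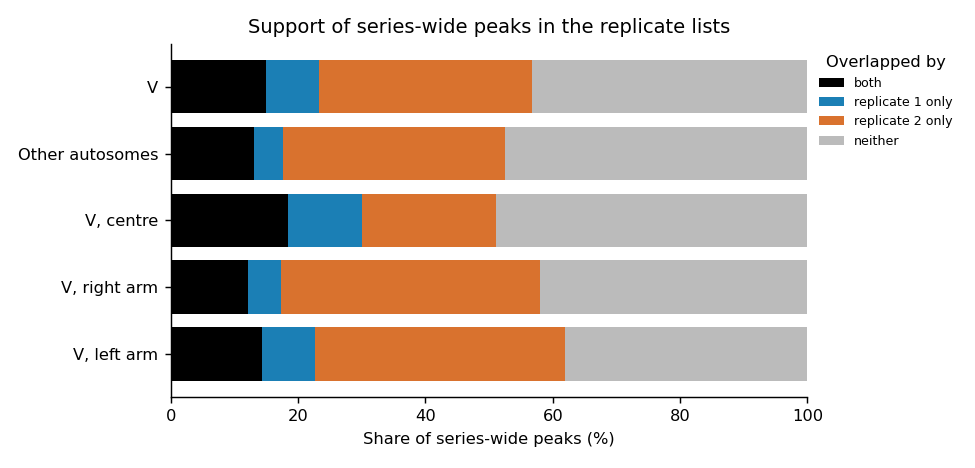
Share in % of series-wide peaks overlapped by both replicates, by one of them or by neither, on V, on the other autosomes (I to IV) and in the parts of V. Peaks overlapped by replicate 2 alone make up 21.1% in the centre of V, 40.6% on its right arm and 39.3% on its left arm.

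Recurrence was compared between V and the other autosomes in both directions. These count the same overlaps against different totals and are not repeated measurements of the same effect, so no call was made from the pair. Of the 320 V peaks of replicate 1, replicate 2 marked 204 (63.7%; 95% exact interval 58.2 to 69.0), against 75.5% on I to IV (73.0 to 78.0) and 69.0% over all nuclear peaks. The log2 odds ratio was -0.81 (two-sided Fisher's exact test, adjusted p = 7.39e-05). In the other direction, 173 of 529 V peaks of replicate 2 (32.7%; 28.7 to 36.9) overlapped replicate 1, against 29.3% on I to IV (27.5 to 31.1) and 31.3% over all. Here the log2 odds ratio was 0.23 (Fisher's exact test, adjusted p = 0.118). Both tests count peaks as independent, which neighbouring peaks are not, and set V against the other autosomes counted together. These shares move with how many peaks the other list holds in a region, and replicate 2 held 25.3 peaks per Mb on V and 41.2 on the other autosomes. That part in the result was not tested. The replicates together covered 551 kb of V, of which 164 kb (29.7%) was covered in both.

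Long stretches without a peak took up more of V than of the other autosomes. In the series-wide list, 25 stretches of 100 kb or more lay on V and 30 on the other autosomes, or 15.7% and 6.19% of the length. In replicate 1 the shares of length were 76.4% and 60.1%, and in replicate 2 they were 44.1% and 22.6%. Since V also had fewer peaks per Mb in each list, these shares were not tested apart from its density. On V, 7 of the 25 stretches were in the centre, 6 on the right arm and 12 on the left arm.

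The longest stretch on V, 229.8 kb from 3204731 to 3434567 on the left arm, held the centre of no peak in any list and ended at the left edge of the wide peak of 6624 bp. In replicate 2 the same stretch measured 229.7 kb, and in replicate 1 it formed the right end of a stretch of 704.4 kb from 2731017 to 3435419. The next were 188.1 kb from 12003267 to 12191319, 186.4 kb from 471770 to 658152, 154.3 kb from 5846105 to 6000369 and 150.1 kb from 8029119 to 8179210. No peak of either replicate was centred in any of these 5 stretches. They were chosen as empty in the series-wide list, which overlapped 95.0% of the V peaks of replicate 1 and 96.4% of those of replicate 2. Few replicate peaks could therefore fall in them, and their emptiness is no separate support. At the right end, replicate 1 had no peak from 20162936 to 20716319, a stretch of 553.4 kb in which replicate 2 had 11.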

How the data were processed

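BWA and the build ce10 are named for the alignment in the submitters' processing notes. Frozen, ground worms had been crosslinked with EGS and then formaldehyde and sonicated, per the labels' protocols. The deposited peak lists, on WormBase WS220 per the file headers, give each peak a score set by the authors' caller (MACS for each replicate, MACS v2 for the series-wide list, per the files' source column). The score's scale, the caller's threshold and its use of input do not appear in the sources at hand, so scores only rank peaks within a list. Depth is unknown. The files hold 0 columns of other samples.

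Numbers, widths, overlaps of at least 1 bp and gaps were computed with Python 3.11.15, numpy 2.4.6, pandas 2.3.3 and scipy 1.17.1, and plots with matplotlib 3.10.9. Peaks were placed by midpoint. Each chromosome was taken to end at the last base of its last peak. Intervals are 95% Clopper-Pearson intervals. Binomial p-values were adjusted by Benjamini-Hochberg over 4 tests, and Fisher p-values over the replicates. Where a single list was used, binomial p-values were adjusted over its centre and arm tests only, and Fisher p-values were left unadjusted. A call needed p under 0.05 in both replicates, in one direction. All tests count single peaks as independent of each other. The centre test was tested on simulated peaks placed independently of each other, and the overlap count on a small hand-made list. The arm test and the Fisher tests were not checked in this way. The sites described are the 10 highest-scoring and 10 widest V peaks, the highest-scoring peak of each part, the group near 17.12 Mb, the 5 longest stretches without a peak and the fullest and emptiest bins. Members, lists and tests were chosen with earlier results of these data known. The tests of wide peaks and of recurrence, the runs of close peaks and the stretch left out were added after the data were examined. Alternatives were the better-scoring 50% of each list, joining of peaks under 500 bp apart, 50% overlap, midpoints within 500 bp, the central 50% of the length, covered bases, the series-wide list and each replicate alone.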

Additional observations from a re-analysis of the deposited data

How the results depend on the processing

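Of 55 values under an alternative, 35 kept their direction and their side of the threshold, or stayed within their error or, for a count of peaks, within 1.5 times. Of the rest, 11 moved beyond that range, 6 passed where the main value did not, and 3 changed sign. For the centre, arm and wide-peak comparisons, direction was that of the mean over the replicates used. A value could therefore count as kept although one replicate changed sign. The centre ratio of V (log2 mean 0.18, not called) ranged from -0.35 to 0.71 with one replicate alone, and each single replicate passed. The log2 odds ratio of the centre of V against the other autosomes (0.07, not called) ranged likewise from -0.40 to 0.54, and was -0.22 in the series-wide list (exact Fisher p = 0.0221). In that list the right arm exceeded the left, at 0.28 (exact binomial adjusted p = 0.0175). With one replicate alone the log2 odds ratio of wide peaks ranged from 0.43 (replicate 2, passed) to 0.50. For peaks of replicate 1, recurrence was lower on V and passed under each alternative (log2 odds ratio -0.81 to -0.54, unadjusted Fisher's exact p at most 0.0472). Recurrence of replicate 2 peaks on V passed when 50% of the peak had to be covered (0.44) and in the better-scoring 50% (0.55). The cause was not tested. The better-scoring 50% of the series-wide list left 604 V peaks, of which 28.5% were found in both replicates; with 50% of the peak covered the share was 10.6%. Overlap of replicate 1 peaks was 50.3% by midpoints, and of replicate 2 peaks 22.3% with 50% covered. Median widths in the series-wide list, replicate 1 and replicate 2 were 308, 500 and 584 bp after merging, and 424.5, 568 and 897 bp in the better-scoring 50%, by construction. The judgement on the centre rests on both replicates passing in one direction. With the central 50% of the length as centre, replicate 2 changed sign in both comparisons of the centre. Covered bases have no test. No paired analysis was possible because ChIP is the one group with peak lists. Unknown depth limits all comparisons of list length.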
